A study of Mus musculus with 6 samples.

Results

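Connective tissue growth factor and its relatives, the cardiac ankyrin repeat gene Ankrd1 and the transcription factors of the Hippo pathway were followed in hearts with and without conditional deletion of Ythdc1. Ythdc1 encodes a nuclear protein that binds N6-methyladenosine, a modified base of messenger RNA. The 10 genes (Ctgf, Cyr61, Wisp1, Wisp2, Ankrd1, Amotl2, Lats2, Yap1, Wwtr1 and Tead1) were found by symbol among 54532 rows of the deposited table, and each symbol matched 1 row. They were chosen by their known roles and from fold changes already seen in this same contrast, in which Ctgf, Ankrd1 and Wisp2 stood near the top. Their values are therefore given as a description, without p-values.

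The 3 CKO libraries came from hearts of Ythdc1-CKO mice and the 3 flox control libraries from hearts of Ythdc1flox/flox mice. All animals had received normal chow for 15 days, and the labels call the libraries of a group independent biological replicates. In the design text of the series the knockout is named HKO, and in its sample labels CKO. The Cre driver, the cells in which the gene was deleted, and the age, sex and strain of the mice are not given in the sources used here. Levels are FPKM, fragment counts scaled to gene length and to a total per library, and so are comparable between genes. That total was 0.936 (CKO 3) to 1.09 (CKO 2) times the reads recovered for the library, so the deposited values carry a scaling other than depth alone, whose method is not given in the sources used here. Coordinates are those of the deposited table, with build GRCm38.p6 per the submitters' processing notes.

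As background, CCN proteins are secreted matricellular proteins, which bind integrins, proteoglycans and growth factors in the extracellular matrix and signal to cells without being structural matrix. Ctgf (CCN2) and Cyr61 (CCN1) are among the best known targets of the transcriptional coactivators YAP and TAZ, encoded by Yap1 and Wwtr1. These coactivators have no DNA-binding domain of their own and act through TEAD factors such as Tead1. The kinases LATS1 and LATS2 phosphorylate YAP and TAZ and keep them out of the nucleus, angiomotin proteins such as AMOTL2 bind them in the cytoplasm, and Amotl2 and Lats2 are themselves known as YAP and TAZ targets. Ankrd1 encodes a stretch-responsive protein of the sarcomeric I-band and the nucleus of heart muscle cells, and is a YAP and TAZ target too. Phosphorylation and nuclear position of the proteins cannot be read from RNA levels.

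Because TEAD factors recognise the letters GGAATG, or CATTCC on the other strand, the promoters of the genes were searched for them. RefSeq promoters of build GRCm38.p6 were found for 6 of the 10 genes, Cyr61, Ankrd1, Amotl2, Lats2, Yap1 and Wwtr1. The 250 bases before the start of Ankrd1 (chr19:36119845-36120094, minus strand), Cyr61 (chr3:145649986-145650235, minus strand), Amotl2 (chr9:102717554-102717803, plus strand) and Yap1 (chr9:8004597-8004846, minus strand) are shown 5′ to 3′ on the strand of the gene, with the TEAD letters in capitals, since these 4 genes carry them and lay higher in every CKO library.
Ankrd1: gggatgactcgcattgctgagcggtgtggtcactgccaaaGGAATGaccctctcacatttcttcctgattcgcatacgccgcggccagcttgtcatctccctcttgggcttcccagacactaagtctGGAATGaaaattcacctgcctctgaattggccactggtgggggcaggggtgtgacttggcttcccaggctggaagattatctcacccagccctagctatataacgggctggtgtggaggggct
Cyr61: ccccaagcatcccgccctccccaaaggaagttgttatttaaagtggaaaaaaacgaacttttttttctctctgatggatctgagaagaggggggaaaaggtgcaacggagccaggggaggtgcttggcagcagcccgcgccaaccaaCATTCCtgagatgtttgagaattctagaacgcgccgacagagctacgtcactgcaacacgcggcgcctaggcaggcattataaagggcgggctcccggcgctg
Amotl2: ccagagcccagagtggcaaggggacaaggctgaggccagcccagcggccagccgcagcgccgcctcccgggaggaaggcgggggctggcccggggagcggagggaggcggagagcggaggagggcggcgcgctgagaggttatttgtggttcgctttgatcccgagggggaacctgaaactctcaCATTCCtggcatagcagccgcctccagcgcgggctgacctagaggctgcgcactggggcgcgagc
Yap1: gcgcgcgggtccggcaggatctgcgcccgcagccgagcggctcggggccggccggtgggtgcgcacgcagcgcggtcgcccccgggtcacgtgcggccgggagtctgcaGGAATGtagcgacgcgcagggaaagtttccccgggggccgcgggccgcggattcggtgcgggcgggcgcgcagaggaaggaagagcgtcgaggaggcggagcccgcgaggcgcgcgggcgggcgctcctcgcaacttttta
The Ankrd1 promoter held GGAATG 2 times, its first base lying 210 and 123 bases before the start. Cyr61 and Amotl2 each held CATTCC once, from 103 and 65 bases before the start, and Yap1 held GGAATG once, from 141 bases. Wwtr1 held GGAATG in each of 2 overlapping promoters, and Lats2 held neither form in its 2 promoters. In all, 5 of the 6 genes carried the letters, against 12.6% of the 32851 promoters of this length in the table. Over genes, 12.9% of the 8981 tested genes with a promoter held them, 15.6% of those called higher, 13.1% of those called lower and 12.7% of those not called. Among the other genes of the same pathways described further on, 20 of 69 with a promoter (29.0%) held the letters, including 4 of 6 TEAD and VGLL genes, 6 of 19 Hippo kinases and upstream regulators, and 5 of 15 SRF and MRTF genes. These shares were not tested against each other. Several of the 10 genes are known YAP and TAZ targets and were chosen by their roles, so nothing is read from their share. Ctgf, Wisp1, Wisp2 and Tead1 had no promoter to search. The AP-1 letters TGANTCA (both strands) and the CArG box, CC and GG around 6 A or T, were in none of these promoters of the 6 genes, and in 6.75% and 1.47% of all promoters. A match describes letters in the window and not a bound site, and Wwtr1 carried the match without a higher level.

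Ythdc1 itself measured 2.39, 2.57 and 2.34 FPKM in CKO 1, 2 and 3, against 4.31, 3.64 and 4.10 FPKM in flox control 1, 2 and 3. With 1 added to each FPKM value, the log2 fold change was -0.54 (SE 0.09), for which limma gave an adjusted p of 0.015. An exact permutation test (two-sided) on these levels returned p = 0.1, and 3 against 3 libraries can give no smaller one. That call was lost without flox control 1 (limma adjusted p = 0.0707), flox control 3 (0.0637) or CKO 3 (0.0535). Reads recovered from the FPKM steps totalled 17434296 to 19360428 per library. Transcripts of heart muscle cells were abundant in all 6 libraries, with Myh6 at 2481 to 3812 FPKM in CKO and 3559 to 4092 FPKM in flox control hearts. CKO 3 differed from the other libraries in sex-linked genes, with Xist at 12.4 FPKM, against 0 to 0.0155 FPKM elsewhere, and Ddx3y at 0.350 FPKM, against 10.8 to 15.9 FPKM elsewhere. Ddx3y lies on the Y chromosome, so CKO 3 had a female pattern of these genes and the other 5 libraries a male pattern. The groups were thus not balanced in this pattern, and the labels name no sex. CKO 1 stood apart in macrophage transcripts, with Lyz2 at 472 FPKM, against 36.2 to 102 FPKM in the other 5 libraries.

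Ctgf, the fibrosis-linked CCN2 gene (ENSMUSG00000019997, chr10:24595442-24598683, plus strand), was high in every CKO heart. It measured 199.5, 213 and 269 FPKM in CKO 1, 2 and 3, against 23.3, 34.5 and 16.5 FPKM in flox control 1, 2 and 3, from 939 to 13944 reads. The groups lay far apart, the lowest CKO library standing 5.78 times above the highest control. The means were 227 ± 36.8 FPKM in CKO and 24.8 ± 9.11 FPKM in flox control hearts (SD, n = 3 each), a ratio of 9.18 and a log2 fold change of 3.20 (SE 0.26). The antisense gene Gm15270 overlaps 23.2% of its exon bases and was listed at 0.760 to 1.34 FPKM in CKO and 0.693 to 0.880 FPKM in flox control libraries. Strand marking is not described, so how shared reads were assigned may bear on the Ctgf level.

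Wisp2, the CCN5 gene (ENSMUSG00000027656, chr2:163820861-163833146, plus strand), whose protein lacks the C-terminal cystine knot domain of the other family members, showed the largest ratio of the 10 genes. Its levels were 16.4, 21.3 and 37.9 FPKM in CKO 1, 2 and 3, against 1.44, 1.95 and 1.88 FPKM in flox control 1, 2 and 3. The controls were uniform and low, at 47 to 72 reads each, while the CKO hearts spread 2.32-fold between the lowest and the highest. Means of 25.2 ± 11.3 FPKM in CKO and 1.76 ± 0.274 FPKM in flox control hearts (SD, n = 3 each) gave a ratio of 14.3. The log2 fold change was 3.17 (SE 0.28) with a pseudocount of 1 and 3.69 with 0.1, and 2.84 without CKO 3, the highest library.

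Cyr61, the CCN1 gene (ENSMUSG00000028195, chr3:145646976-145649981, minus strand), an immediate early gene of stimulated cells, was higher in CKO hearts by a smaller margin and with a control library close to the CKO range. It measured 52.6, 45.4 and 33.3 FPKM in CKO 1, 2 and 3, against 14.5, 16.4 and 32.6 FPKM in flox control 1, 2 and 3. The groups just failed to touch, since CKO 3 and flox control 3 differed by 1.02-fold. The mean was 43.8 ± 9.74 FPKM in CKO and 21.2 ± 9.96 FPKM in flox control hearts (SD, n = 3 each), with a log2 fold change of 1.08 (SE 0.32) over all libraries and 1.42 without flox control 3. Flox control 3 was also the highest of all 6 libraries in the immediate early genes Egr1 and Fos. Egr1 measured 16.8, 11.6 and 12.6 FPKM in CKO 1, 2 and 3, against 4.12, 5.00 and 30.3 FPKM in flox control 1, 2 and 3. Fos measured 6.80, 6.31 and 4.90 FPKM in CKO 1, 2 and 3, against 1.46, 5.11 and 15.8 FPKM in flox control 1, 2 and 3. The part of this library difference in the Cyr61 values was not tested.

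Wisp1, the CCN4 gene (ENSMUSG00000005124, chr15:66891320-66923201, plus strand), did not separate the genotypes. It measured 1.20, 2.76 and 2.37 FPKM in CKO 1, 2 and 3, against 1.13, 1.29 and 2.83 FPKM in flox control 1, 2 and 3. Flox control 3 lay above all CKO hearts, CKO 1 lay below 2 controls, and the log2 fold change was 0.19 (SE 0.29). The remaining family members were at low levels. Nov, the CCN3 gene, measured 1.90, 4.69 and 5.14 FPKM in CKO 1, 2 and 3, against 3.57, 4.29 and 5.68 FPKM in flox control 1, 2 and 3 (limma adjusted p = 0.683). Wisp3, the CCN6 gene, was listed at 0 to 0.290 FPKM in CKO and 0.0707 to 0.250 FPKM in flox control hearts and did not pass the filter of a mean of 1 FPKM.

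**Figure D1:**
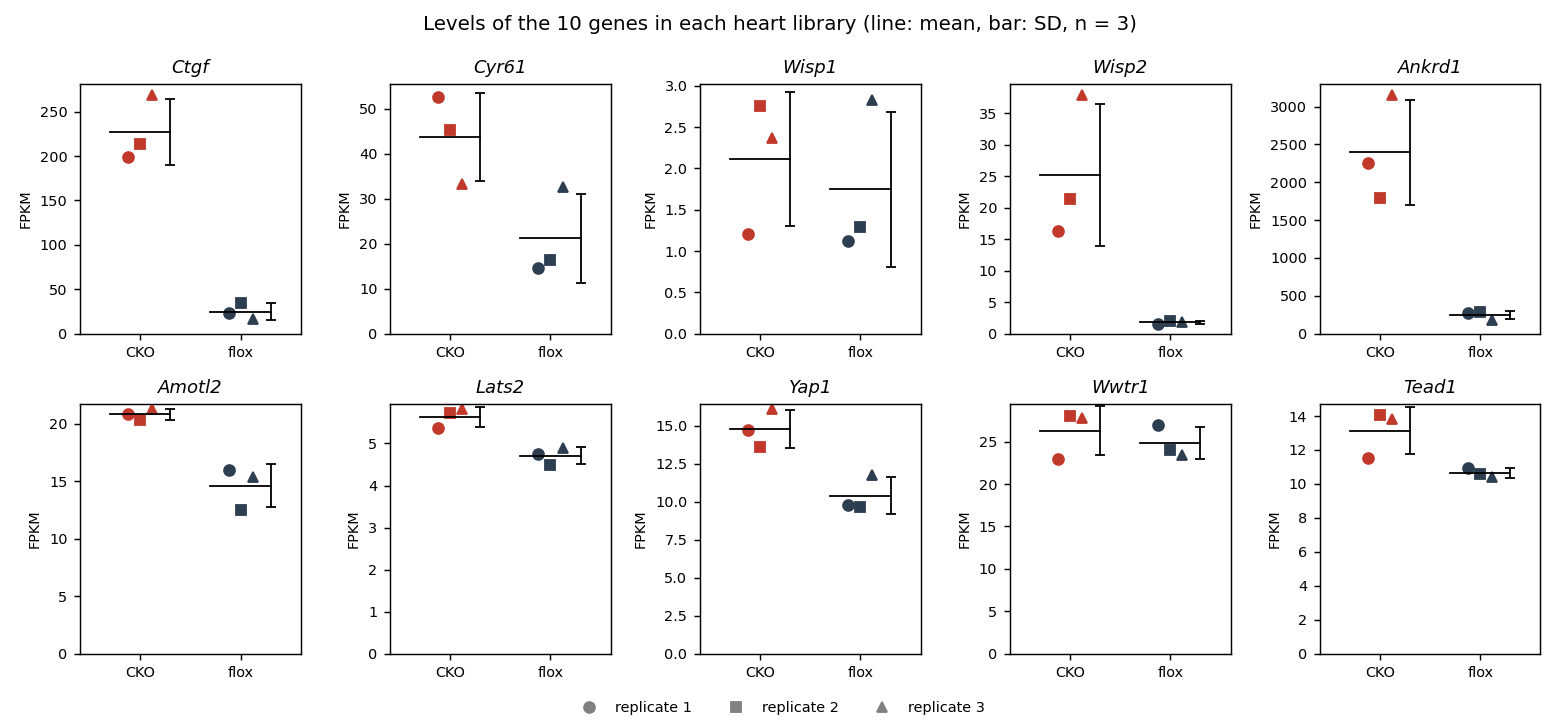
FPKM (vertical axis, from 0) of each of the 10 genes in the 3 CKO libraries (red, left) and the 3 flox control libraries (dark, right), with the replicate number as the symbol, the mean as a line and the SD as a bar (n = 3 each). Ctgf, Wisp2 and Ankrd1 lie several-fold higher in every CKO library, while the Wisp1 and Wwtr1 groups overlap.

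The summed level of the 6 CCN genes was 272, 288 and 348 FPKM in CKO 1, 2 and 3, against 44.2, 58.6 and 59.5 FPKM in flox control 1, 2 and 3. Ctgf made up 73.4% to 77.4% of this sum in CKO hearts and 27.6% to 58.9% in flox control hearts. Cyr61 took 9.59% to 19.4% in CKO and 27.9% to 54.8% in flox control hearts, being the largest member in flox control 3. The share of Wisp2 was 6.03% to 10.9% in CKO and 3.15% to 3.33% in flox control hearts. Shares of one sum are tied to each other: Ctgf, chosen for its high fold change, dominates the sum in CKO hearts, so the lower shares of Cyr61, Nov and Wisp1 there are no separate difference. The Cyr61 level itself was 2.07 times higher in CKO hearts, and the Nov and Wisp1 levels overlapped. Within a library, the Ctgf level was 3.79 to 8.07 times that of Cyr61 in CKO hearts, against 0.505 to 2.11 times in flox control hearts.

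**Figure D2:**
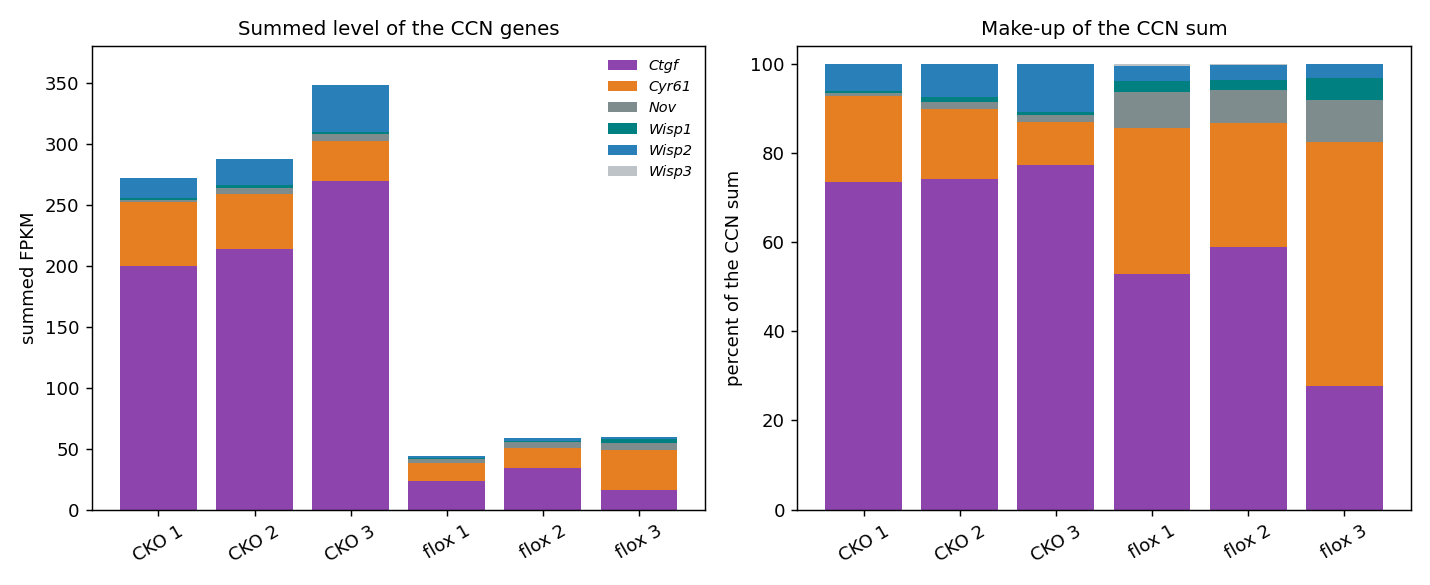
Left, summed FPKM of the 6 CCN genes in each library, stacked by gene; right, the same as a percent of each library's sum. The CKO bars (first 3) reach 272 to 348 FPKM and are mostly Ctgf, and the flox control bars reach 44.2 to 59.5 FPKM with a larger Cyr61 part.

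Ankrd1 (ENSMUSG00000024803, chr19:36111965-36119844, minus strand), whose promoter with a pair of TEAD matches is shown above, was the most abundant of the 10 genes in both groups. It measured 2248, 1787 and 3154 FPKM in CKO 1, 2 and 3, against 270.0, 282 and 183 FPKM in flox control 1, 2 and 3, from 6430 to 100868 reads. Every CKO heart stood at least 6.35 times above the highest control. The means were 2396 ± 695 FPKM in CKO and 245 ± 54.0 FPKM in flox control hearts (SD, n = 3 each), a ratio of 9.79 and a log2 fold change of 3.27 (SE 0.27), or 3.05 without CKO 3. The cardiac myosin gene Myh6 had a mean of 3212 FPKM in the same CKO hearts, against 2396 FPKM for Ankrd1.

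The ratio of Ankrd1 to Ctgf ranged from 8.16 to 11.7 over the libraries. The Ankrd1 level was 11.3, 8.38 and 11.7 times that of Ctgf in CKO 1, 2 and 3, against 11.6, 8.16 and 11.1 times in flox control 1, 2 and 3. The ratio overlapped between the groups, and library 2 of each group was the lowest in it. Each gene alone differed by more than 9-fold. Both were chosen from this contrast with similar log2 fold changes (3.27 and 3.20), so a ratio that does not separate the groups follows from the choice. Among the 10 genes the Ctgf profile was the nearest to that of Ankrd1, with a root mean square difference of 0.22 on the log2 scale over the 6 libraries. Wisp2 came next at 0.33 and Cyr61 was at 1.29. These differences include the step between the genotypes, so they largely order the genes by fold change.

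Yap1, which encodes the coactivator YAP (ENSMUSG00000053110, chr9:7931999-8004596, minus strand), was moderately higher in CKO hearts. It measured 14.7, 13.6 and 16.1 FPKM in CKO 1, 2 and 3, against 9.76, 9.62 and 11.8 FPKM in flox control 1, 2 and 3. The groups did not overlap, the means being 14.8 ± 1.26 FPKM in CKO and 10.4 ± 1.21 FPKM in flox control hearts (SD, n = 3 each). The ratio was 1.42 and the log2 fold change 0.47 (SE 0.11).

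Wwtr1, which encodes the YAP paralog TAZ (ENSMUSG00000027803, chr3:57455649-57575910, minus strand), was the more abundant coactivator transcript in every library and showed no separation. It measured 23.0, 28.0 and 27.8 FPKM in CKO 1, 2 and 3, against 27.0, 24.0 and 23.5 FPKM in flox control 1, 2 and 3, and CKO 1 was the lowest of all. Its log2 fold change was 0.08 (SE 0.11). The Yap1 level was 0.640, 0.485 and 0.578 times that of Wwtr1 in CKO 1, 2 and 3, against 0.361, 0.401 and 0.502 times in flox control 1, 2 and 3, and these ratios overlapped. Together the pair summed to 37.7 to 43.9 FPKM in CKO and 33.6 to 36.7 FPKM in flox control hearts, without overlap.

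Tead1, the DNA-binding partner of YAP and TAZ (ENSMUSG00000055320, chr7:112679318-112906807, plus strand), measured 11.5, 14.0 and 13.8 FPKM in CKO 1, 2 and 3, against 10.9, 10.6 and 10.4 FPKM in flox control 1, 2 and 3. All CKO hearts lay above all controls, CKO 1 only 1.06 times above the highest of them, and the log2 fold change was 0.28 (SE 0.10). Its paralog Tead3 lay lower in all CKO hearts, at 3.01, 2.94 and 3.53 FPKM in CKO 1, 2 and 3, against 4.47, 3.71 and 4.26 FPKM in flox control 1, 2 and 3, without passing the test (log2 fold change -0.31, limma adjusted p = 0.101). Tead1 accordingly took 60.6% to 64.3% of the summed Tead1 to Tead4 level in CKO hearts and 53.2% to 56.3% in flox control hearts, while the sum itself overlapped (18.0 to 22.8 FPKM in CKO and 18.8 to 20.5 FPKM in flox control hearts). Tead2 (limma adjusted p = 0.996) and Tead4 (0.813) did not pass.

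Amotl2, the angiomotin family gene (ENSMUSG00000032531, chr9:102716672-102733418, plus strand), was the most uniform of the 10 within the CKO group. It measured 20.9, 20.3 and 21.3 FPKM in CKO 1, 2 and 3, against 16.0, 12.5 and 15.3 FPKM in flox control 1, 2 and 3. The coefficient of variation was 2.26% in CKO and 12.8% in flox control hearts, and the ratio of means was 1.43 (log2 fold change 0.49, SE 0.11). Its relatives Amotl1 (log2 fold change 0.03, limma adjusted p = 0.899) and Amot (0.763 to 1.14 FPKM in CKO and 0.774 to 0.985 FPKM in flox control hearts, below the filter) did not show that separation.

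Lats2, which encodes a kinase that restrains YAP and TAZ (ENSMUSG00000021959, chr14:57689662-57758388, minus strand), was slightly higher. It measured 5.36, 5.73 and 5.81 FPKM in CKO 1, 2 and 3, against 4.75, 4.49 and 4.89 FPKM in flox control 1, 2 and 3, a ratio of means of 1.20 and a log2 fold change of 0.22 (SE 0.08). The groups did not overlap, but the step between them was only 1.10-fold. The Lats2 level relative to its paralog Lats1 was 1.13, 0.985 and 1.11 in CKO 1, 2 and 3, against 1.05, 1.09 and 1.08 in flox control 1, 2 and 3, and overlapped. The same-strand gene Gm49361 covers 42.4% of the Lats2 exon bases and was listed at 0 FPKM in every library, so how shared reads were assigned bears on the Lats2 level.

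**Figure D3:**
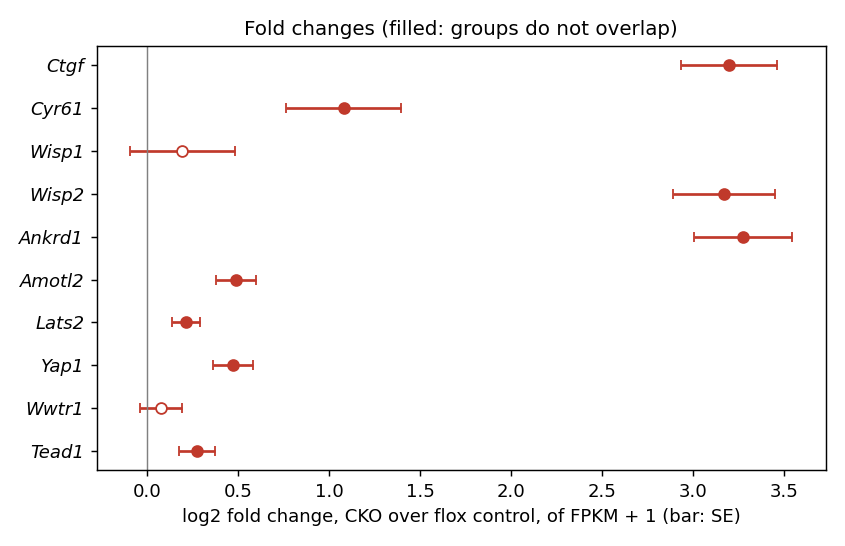
Log2 fold change of each gene, CKO over flox control, on the log2(FPKM + 1) scale (horizontal axis), with its SE as a bar. Filled points are genes whose groups do not overlap: Ankrd1, Ctgf and Wisp2 lie above 3, Cyr61 near 1, and the other filled genes below 0.5.

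**Figure D4:**
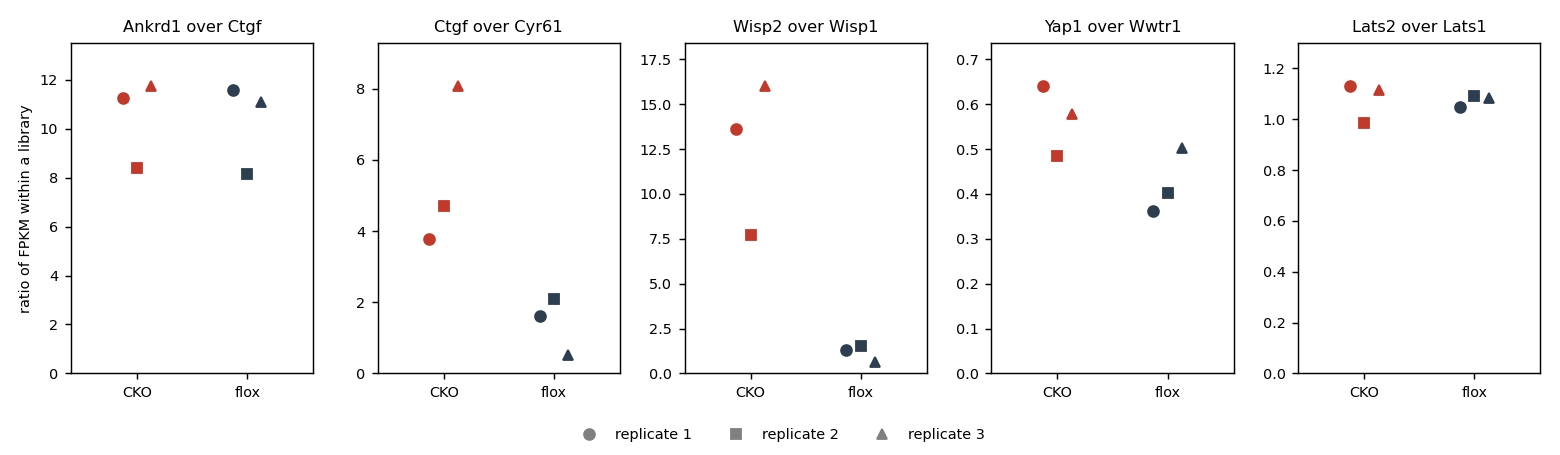
Ratio of FPKM between pairs of genes within each library (vertical axes from 0), with CKO in red on the left and flox control in dark on the right. Ankrd1 over Ctgf stays between 8.16 and 11.7 in all 6 libraries, whereas Ctgf over Cyr61 and Wisp2 over Wisp1 separate the groups.

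Of the 10 genes, all of which had a mean of at least 1 FPKM, 8 had non-overlapping groups with CKO higher, 0 had CKO lower and 2 overlapped. Among the 12144 genes tested, 16.9% did not overlap with CKO higher and 17.4% with CKO lower. In the limma fit across all genes, Ctgf, Wisp2, Ankrd1, Amotl2 and Yap1 (5 of 10) were called higher, with 0 called lower, 0 lower at an unadjusted p under 0.05, and 0 lower by limma with voom on recovered reads. The shares of all tested genes called higher and lower were 5.69% and 5.49%. Ctgf, Wisp2 and Ankrd1 were called under each of the 15 alternatives tried. Calls of Amotl2 and Yap1 were lost under several, among them leaving out any 1 of the 6 libraries, and Cyr61 was called without flox control 3 alone. By log2 fold change, Ankrd1, Ctgf and Wisp2 ranked 5, 6 and 7 from the top of all tested genes, Cyr61 220 and Wwtr1 4796. The median over the 10 genes was 0.48, against 0.01 over all tested genes. Since the genes were chosen from this contrast, with its highest fold changes in view, these counts, calls, ranks and medians only describe the choice, and nothing is read from them.

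Within the CKO group, replicate 3 was the highest in 6 of the 10 genes, including Ctgf, Wisp2 and Ankrd1, and the lowest in Cyr61. Replicate 1 was the lowest in 6. The CKO heart with the most Ctgf thus had the least Cyr61, and the flox control heart with the least Ctgf, replicate 3, had the most Cyr61. CKO 3 was also the only library of either group with Xist above 0.0155 FPKM. The part of this sex-linked difference in its levels was not tested.

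Other genes of the same pathways were followed in 8 lists, written from general knowledge with an earlier account of these data at hand, in the same fit over 12144 genes. Of 95 genes found, 84 were tested, and 11 of them (13.1%) rose while 0 fell (limma, with 3 lower at an unadjusted p under 0.05 and 0 by voom). The background for all genes was 5.69% higher and 5.49% lower, and the median log2 fold change of these genes was 0.21. The count of 11 was 20 without CKO 1, 5 without CKO 3, and 4, 5 and 6 without flox control 1, 2 and 3, so it rested on which libraries entered. Of the 11 genes, 4 passed under every alternative that tested them, among them Itgb5, Lrp1 and Ankrd23.

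Integrin chains and other CCN receptors held 5 of the 11 calls. Of 11 tested members, 5 rose, 0 fell (0 lower at an unadjusted p under 0.05 and 0 by voom) and 6 did not pass, with a median log2 fold change of 0.59. The count of 5 was 3 without CKO 3 and 2, 3 and 3 without flox control 1, 2 and 3. Lrp1, a large endocytic receptor that binds CTGF, measured 19.0, 18.1 and 16.9 FPKM in CKO 1, 2 and 3, against 9.61, 9.33 and 9.80 FPKM in flox control 1, 2 and 3 (log2 fold change 0.84, SE 0.08, limma adjusted p = 0.00486). Itgb5, an integrin beta chain that pairs with the alpha v chain, measured 62.1, 47.2 and 67.9 FPKM in CKO 1, 2 and 3, against 30.5, 25.0 and 26.2 FPKM in flox control 1, 2 and 3 (log2 fold change 1.08, SE 0.16, limma adjusted p = 0.0118). Neither gene's groups overlapped, and the CKO hearts spread 1.13-fold for Lrp1 and 1.44-fold for Itgb5. Itgav, the alpha v chain itself, measured 4.18, 5.68 and 5.32 FPKM in CKO 1, 2 and 3, against 2.65, 2.48 and 2.67 FPKM in flox control 1, 2 and 3 (limma adjusted p = 0.0128, and 0.0573 without flox control 1). Itga5 (log2 fold change 0.78, limma adjusted p = 0.0265) and Itgb3 (0.59, limma adjusted p = 0.0470) rose too. Each of these 2 calls was lost on leaving out CKO 2, CKO 3 or any flox control (adjusted p of 0.0708 to 0.104 for Itga5 and 0.117 to 0.130 for Itgb3). Itgb1, the common beta chain, measured 178 to 214 FPKM in CKO and 144 to 163 FPKM in flox control hearts and did not pass (limma adjusted p = 0.114).

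Hippo kinases and their upstream regulators held a single call. Of 21 tested members, 1 rose, 0 fell and 20 did not pass, a share of calls near the background, with a median log2 fold change of 0.17. At an unadjusted p under 0.05 in limma 4 were higher and 0 lower, and by voom 1 was higher and 0 lower. The groups did not overlap in 9 with CKO higher and in 1 with CKO lower, against 16.9% and 17.4% of all tested genes. The gene that passed was Stk4, which encodes the kinase MST1, at 5.56, 5.48 and 5.91 FPKM in CKO 1, 2 and 3, against 4.32, 4.03 and 4.14 FPKM in flox control 1, 2 and 3 (log2 fold change 0.37, SE 0.07, limma adjusted p = 0.0295). That call was lost under 8 of 14 alternatives, among them leaving out CKO 2, CKO 3 or any flox control, with adjusted p of 0.0262 to 0.112 over all alternatives. Its paralog Stk3 (log2 fold change 0.00, limma adjusted p = 0.996), the scaffold gene Sav1 (0.26, limma adjusted p = 0.159), Lats1 (0.21, limma adjusted p = 0.194) and Nf2, the merlin gene (-0.18, limma adjusted p = 0.259), did not pass.

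Among TEAD and VGLL genes, 1 of 5 tested rose and 0 fell (1 lower at an unadjusted p under 0.05 and 0 by voom). Vgll3, which encodes a cofactor that binds TEAD in competition with YAP, measured 1.71, 3.56 and 2.43 FPKM in CKO 1, 2 and 3, against 0.774, 0.537 and 0.614 FPKM in flox control 1, 2 and 3. Its higher level (log2 fold change 1.09, SE 0.20, limma adjusted p = 0.0210) rested on 67 reads in the lowest library, and its call was lost under 6 of 14 alternatives, among them leaving out CKO 3 or any flox control (adjusted p of 0.00895 to 0.0705 over all alternatives).

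Among genes listed from a signature of YAP and TAZ targets, drawn up in human cancer cells, none outside the 10 members passed. The known targets Ctgf, Ankrd1 and Amotl2 were called higher in the same fit, and Cyr61 and Lats2 were not, but they count as members. Apart from the members themselves, 14 of its genes were tested, of which 0 rose and 0 fell by limma, 4 were higher and 1 lower at an unadjusted p under 0.05, and 2 were higher and 0 lower by voom. The median log2 fold change was 0.20. The smallest adjusted p belonged to Tgfb2, a TGF-beta ligand gene (4.03 to 5.90 FPKM in CKO and 2.48 to 3.53 FPKM in flox control hearts, limma adjusted p = 0.0551), and Myof, the myoferlin gene (1.59 to 2.33 FPKM in CKO and 0.991 to 1.27 FPKM in flox control hearts, limma adjusted p = 0.0564). Both passed by voom, and the signature had 2 genes called higher and 1 lower without CKO 1, and 1 lower without CKO 2. Likewise, of 18 tested SRF and MRTF factors and targets, 0 rose and 0 fell by limma, 2 were higher and 1 lower at an unadjusted p under 0.05, and 1 was higher by voom. Leaving out CKO 1 gave 2 calls and leaving out flox control 3 gave 1, all higher. Fhl1, a LIM domain protein gene of striated muscle, measured 51.2, 165 and 78.6 FPKM in CKO 1, 2 and 3, against 28.1, 37.2 and 30.1 FPKM in flox control 1, 2 and 3 (limma adjusted p = 0.0657), and its paralog Fhl2 428 to 645 FPKM in CKO and 800 to 968 FPKM in flox control hearts (limma adjusted p = 0.0719).

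In the muscle ankyrin repeat family, to which Ankrd1 belongs, Ankrd23 rose and Ankrd2 was nearly absent. Ankrd23 measured 5.52, 5.18 and 5.73 FPKM in CKO 1, 2 and 3, against 2.57, 2.85 and 3.01 FPKM in flox control 1, 2 and 3 (log2 fold change 0.77, SE 0.08, limma adjusted p = 0.00607). The same-strand gene Gm42417 covers 78.2% of its exon bases and was listed at 0 to 0.0237 FPKM, so how shared reads were assigned bears on the Ankrd23 level. Ankrd2 was listed at 0 to 0.101 FPKM in CKO and 0.0518 to 0.182 FPKM in flox control hearts. Genes of proteins that bind Ankrd1 protein or share its sarcomeric site did not pass, and in all 1 of 8 tested genes of this list rose and 0 fell (0 lower at an unadjusted p under 0.05 and 0 by voom).

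TGF-beta ligands and response genes, listed because Ctgf is also a classical TGF-beta target, had positive fold changes in 7 of 7 tested members, with a median of 0.65. Of these 3 rose and 0 fell (0 lower at an unadjusted p under 0.05 and 0 by voom), and 1 to 6 rose when 1 library was left out. Over all tested genes the median log2 fold change was 0.01, with 5.69% called higher and 5.49% lower. The list was written with an earlier account of these data at hand, so nothing is read from the 7 positive fold changes. Ltbp2, a latent TGF-beta binding protein family gene, measured 4.30, 10.2 and 13.5 FPKM in CKO 1, 2 and 3, against 0.802, 1.33 and 2.07 FPKM in flox control 1, 2 and 3 (limma adjusted p = 0.0241). Tgfb1 measured 10.7 to 11.2 FPKM in CKO and 7.85 to 8.30 FPKM in flox control hearts (limma adjusted p = 0.0220). Without CKO 3 or any flox control the Ltbp2 and Tgfb1 calls were lost (adjusted p of 0.0540 to 0.0917 for Ltbp2 and 0.0678 to 0.0900 for Tgfb1), as was that of Ltbp2 without CKO 2 (0.0726).

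**Figure D5:**
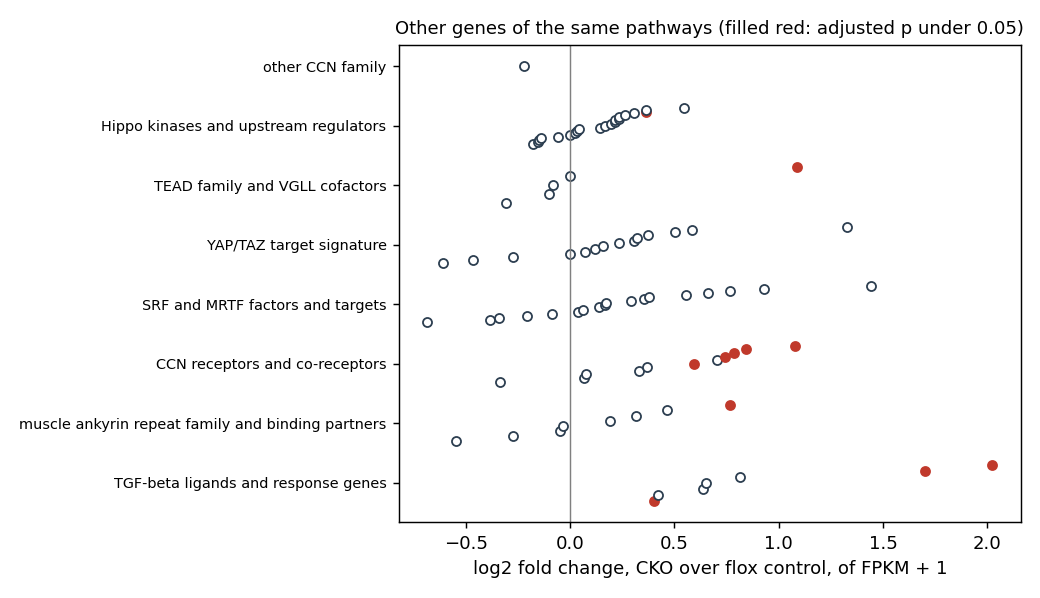
Log2 fold change, CKO over flox control, on the log2(FPKM + 1) scale (horizontal axis) for each tested gene of the 8 lists (rows, 1 point per gene). Filled red points passed an adjusted p under 0.05: 5 lie among the CCN receptors and 3 among the TGF-beta genes. None lies among the SRF and MRTF genes or the YAP/TAZ signature, which is drawn without the 10 members.

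Genes whose profile lay nearest to the strongest members were found by the root mean square difference of centred log2(FPKM + 1) over the 6 libraries. Genes with Gm, Rik or clone names were left out of this search. Phgdh, an enzyme gene of serine synthesis, was the nearest of the remaining genes outside the 10 to each of Ankrd1 (0.29), Ctgf (0.25) and Wisp2 (0.20). For Ankrd1 the next were Serpina3n (0.38) and Gdf15 (0.45), for Ctgf Nppb (0.37) and Gdf15 (0.41), and for Wisp2 Krt18 (0.26) and Trib3 (0.36). Phgdh, Serpina3n, Gdf15 and Krt18 had as few as 23, 26, 18 and 6 reads in a library, so the 1 added to FPKM bears on their profiles. Their ratios of means were 16.2, 25.8, 26.1 and 26.5, with 6.08 for Nppb and 9.42 for Trib3. Those of Ankrd1, Ctgf and Wisp2 were 9.79, 9.18 and 14.3. The members' own root mean square deviations over the libraries were 1.67, 1.63 and 1.62 for Ankrd1, Ctgf and Wisp2. These deviations and the differences above include the step between the genotypes. Genes with a similar fold change therefore come out near, and these members were chosen for their fold changes, so nothing further is read from the nearness.

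Whole hearts hold several cell types, and in such bulk samples fewer cells of a type cannot be told apart from less RNA per cell. Ctgf and Wisp2 are also transcribed by fibroblasts, whose 7 markers summed to 474 to 692 FPKM in CKO and 330 to 448 FPKM in flox control hearts. Of these markers 1 rose and 6 did not pass, and the count was 0 without CKO 3, flox control 1 or flox control 2. The gene that rose was Tcf21, a fibroblast transcription factor gene, at 12.9, 22.5 and 20.4 FPKM in CKO 1, 2 and 3, against 6.70, 6.08 and 7.88 FPKM in flox control 1, 2 and 3 (limma adjusted p = 0.0147). The other 6 had log2 fold changes of 1.03 (Postn, SE 0.38), 0.71 (Col1a2, SE 0.24), 0.64 (Col1a1, SE 0.25), 0.18 (Pdgfra, SE 0.08), -0.03 (Dcn, SE 0.24) and -0.26 (Lum, SE 0.27). The groups overlapped for Dcn and Lum, and in the other 4 every CKO heart lay above every control. Cardiomyocyte markers, the usual source of Ankrd1, summed to 9981 to 13066 FPKM in CKO and 13168 to 16422 FPKM in flox control hearts, with 1 of 6 lower, Tnni3 (752 to 918 FPKM in CKO and 1314 to 1380 FPKM in flox control hearts, limma adjusted p = 0.0314), and 5 not passing. That count was 0 without CKO 2 or any flox control. The step between the sums was small, with 13066 FPKM in CKO 3 against 13168 FPKM in flox control 3. The groups overlapped for Myh6, Actc1 and Tnnt2, while Tnni3, Ryr2 and Pln lay lower in every CKO heart. The antisense gene Gm47644 overlaps 59.6% of the Pln exon bases, so how shared reads were assigned may bear on the Pln level.

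Of the 4 atrial markers, Nppa, the atrial natriuretic peptide gene, rose (518 to 2057 FPKM in CKO and 83.5 to 191 FPKM in flox control hearts, limma adjusted p = 0.0185) and Sln, the sarcolipin gene, fell (0.167 to 3.34 FPKM in CKO and 5.05 to 21.1 FPKM in flox control hearts, limma adjusted p = 0.0436). No atrial marker rose without flox control 2 or 3, and 1, 0, 0, 0, 3 and 0 fell without CKO 1, 2 and 3 and flox control 1, 2 and 3. Myl7 measured 24.1 to 40.7 FPKM in CKO and 56.6 to 244 FPKM in flox control hearts and Myl4 1.93 to 4.72 FPKM in CKO and 7.40 to 31.6 FPKM in flox control hearts, neither passing. Their list summed to 547 to 2100 FPKM in CKO and 153 to 395 FPKM in flox control hearts. Nppa was the largest member in every CKO library and Myl7 (244 FPKM, against 99.5 FPKM of Nppa) in flox control 3. The antisense gene Gm13054 overlaps 61.5% of the Nppa exon bases, so how shared reads were assigned may bear on the Nppa level. None of the 5 endothelial, 5 smooth muscle and pericyte, 5 macrophage, 2 tested epicardial and 5 sex-linked markers passed by limma or by voom, and 1 endothelial marker was lower at an unadjusted p under 0.05. The sums of the first 4 of these lists were 159 to 221, 171 to 265, 78.8 to 679 and 5.44 to 6.38 FPKM in CKO hearts, against 211 to 215, 240 to 270, 99.1 to 197 and 4.62 to 6.25 FPKM in flox control hearts. No marker gene was under 0.1 FPKM in all 6 libraries. The part of these differences in the levels of the 10 genes was not tested.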

How the data were processed

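Gene expression was measured by RNA-seq in 6 mouse hearts, 3 CKO and 3 flox control, grouped by the genotype in the labels. Per the labels' protocols, poly-T selected RNA was primed with random hexamers and read as 150 bp pairs; strand marking is not described. The deposited values are FPKM for 54532 genes. The build GRCm38.p6 and the tools DESeq2 1.20.0, HISAT2 2.0.5, CASAVA and featureCounts 1.5.0-p3 are listed, with no roles, in the submitters' processing notes. FPKM times the deposited gene length gave whole reads for 100% of values (tolerance 0.001), so read numbers could be recovered, with 17434296 to 19360428 per library.

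Testing used limma 3.58.1 (R 4.3.3) on log2(FPKM + 1) for the 12144 genes whose mean reached 1 FPKM, with a variance trend and genotype as the only factor. Calls are Benjamini-Hochberg adjusted p under 0.05 over all genes, 2-sided. Fold changes on this scale understate low genes, and ratios are of mean FPKM. The members and lists were chosen with earlier results of these data known. Named are all members, Ythdc1, up to 5 called genes per list, 14 genes fixed by name, the 3 nearest profiles, and marker genes. Where no gene of a list was called, its 2 lowest by adjusted p are named. Nearest profiles were sought only among genes without a Gm, Rik or clone name. Egr1, Fos, Itgb1 and single markers were picked once their values were known. Not every called gene of the lists is reported here. Ptpn14 stands in 2 lists and counts once in the total. Mkl1 and Mkl2 were matched under their older symbols. The procedure was tested on simulated reads that had the same dispersion for all genes and no library standing apart. That run therefore does not cover the spread seen in these libraries. Alternatives covered the pseudocount, the filter, the scaling, the variance model, voom, the replicate block and each library left out. Tables used Python 3.11.15, pandas 2.3.3, numpy 2.4.6 and scipy 1.17.1.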

Additional observations from a re-analysis of the deposited data

How the results depend on the processing

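Across the 15 alternatives no log2 fold change of the 10 genes changed sign, and 146 of 149 stayed within the spread between replicates. The exceptions were Wisp2 with a pseudocount of 0.1 (3.69) and with voom (3.74), and Lats2 after rescaling to TPM (0.29). Changes of the filter, the variance trend, robust variance and the replicate block cannot alter a fold change in this balanced design. Their results are counted in the 146 but are no check of the fold changes. The members called higher numbered 3 with no filter, after rescaling to TPM and under the replicate block, and 3 to 4 without 1 library, against 5 in the fit reported; members called lower numbered 0 throughout. Other genes of the pathways called higher numbered 6 with no filter, 7 with a mean of at least 5 FPKM and 4 to 20 without 1 library, against 11, and those called lower 1 without a variance trend and 0 to 1 without 1 library, against 0. Over all genes, 388 were called higher and 410 lower with no filter, 367 and 348 with the replicate block, 160 to 807 and 155 to 683 without 1 library, and 439 lower after rescaling to TPM, against 691 and 667. The Ythdc1 fold change was -0.59 after rescaling to TPM (limma adjusted p = 0.0944), -0.54 with the replicate block (0.0542) and -0.60 to -0.50 without 1 library (0.0263 to 0.0707). With no filter 27031 genes were tested and leaving out a library removes a sample; otherwise the cause was not tested.

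The replicate block was not taken as a pairing, since the correlations of deviations between same-numbered libraries were 0.139, 0.0597 and -0.00548 for numbers 1, 2 and 3, and the labels name no shared litter or batch. Not every library correlated best with its own number. Of the pathway genes named, 41 call results were lost and 8 gained over the alternatives. Sign changes occurred in 17 and only among genes that were not called. Without 1 library they were Amotl1 (-0.051 to 0.13), Nov (-0.42 to 0.12), Stk3 (-0.038 to 0.060), Tead2 (-0.14 to 0.18) and Tead4 (-0.23 to 0.050). Stk3 and Tead2 also did so with a pseudocount of 0.1 (-0.00024 and -0.0067) and median-of-ratios rescaling (-0.0018 and -0.0015), and Tead2 with voom (-0.0071). Wisp1 and Wisp2 rested on as few as 106 and 47 reads in a library, which limits how finely their low levels can be told apart.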
